A study of Apis mellifera with 12 samples.

Results

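Sex differences that kept their direction through embryogenesis were sought in 12 RNA-seq libraries of whole honeybee embryos (*Apis mellifera carnica*). The 6 female and 6 male libraries were compared with age as a covariate. A locus was a candidate when its estimate was valid in all 12 libraries, its mean was at least 1 FPKM (fragments scaled to the length of the locus and to the mapped fragments of the library), and its female minus male difference had the same sign at each of 3 ages. Of 17621 loci, 10105 passed the filter. The mean of the lowest locus kept was 1.0012 FPKM and that of the highest one left out was 0.99926 FPKM. The model with age as a covariate called no locus. A model of the 6 group means called 759 loci with the same sign at each age, 189 higher and 570 lower in females.

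The groups were female and male wild-type embryos frozen at 10-15 h, at 25-40 h and at 55-70 h after the eggs were laid. Each of the 6 groups had 2 libraries. Each library was made from poly(A) RNA of pooled embryos of 3 mothers, namely 100 embryos of 10-15 h, 60 of 25-40 h or 30 of 55-70 h. Female embryos are diploid and male embryos haploid. The study obtained female eggs from naturally mated queens and male eggs from unmated queens treated with carbon dioxide, so where this holds for these libraries a sex difference cannot be told apart from a difference between such mothers. The labels do not say that the 2 pools of a group were collected separately, so the spread behind the p-values may be technical only. The sum of all FPKM ranged between 426254 and 727448 per library. Depth in reads is unknown, because the files hold no counts.

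In honeybees, sex is set by *csd* (*complementary sex determiner*). Different *csd* alleles together lead to female splicing of *fem* (*feminizer*), and Fem directs female splicing of *dsx* (*doublesex*), while a single allele leads to the male forms. The youngest embryos of an insect hold much RNA laid down by the mother, which is later degraded while the embryo's own genes are switched on. In whole embryos, fewer cells of a type and less RNA per cell cannot be told apart.

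Whether sex differences could be called depended on the model. With age as a covariate, 0 of 10105 loci were called in limma after Benjamini-Hochberg adjustment (0% higher and 0% lower), and the smallest adjusted p was 0.0972. At an unadjusted p under 0.05 this model held 2170 loci, of which 307 were higher and 1317 lower in females at each age. In that model a difference whose size changes between the ages adds to the residual spread. The model of 6 group means takes its spread only from the 2 libraries of each group. It called 1206 loci, and 447 of them did not have the same sign at each age. The 189 loci higher in females at each age are 1.87% of those tested and the 570 lower ones are 5.64%. Of all loci tested, called or not, 5.71% were higher and 22.79% lower in females at each age. The calls below are those of the group means model, and each of them has an adjusted p of at least 0.0972 in the model with age as a covariate.

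The scaling of the libraries set the balance of the directions. On the deposited values the median difference over all loci was -0.14 on the log2(FPKM + 1) scale, on which all differences here are given and which understates the change of low loci. The median was -0.11 at 10-15 h, -0.03 at 25-40 h and -0.19 at 55-70 h. After median-ratio scaling, which moved it to 0.02, the calls were 550 higher (5.54%) and 354 lower (3.57%). After quantile normalization they were 346 higher (3.42%) and 294 lower (2.91%), and after rescaling to the same sum (TPM) 158 higher and 1530 lower. Common to the deposited values and these 3 scalings were 121 of the 189 loci higher in females and 225 of the 570 lower ones. The shares of all loci with the same sign at each age moved too, to 14.08% higher and 11.28% lower after median-ratio scaling.

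**Figure D1:**
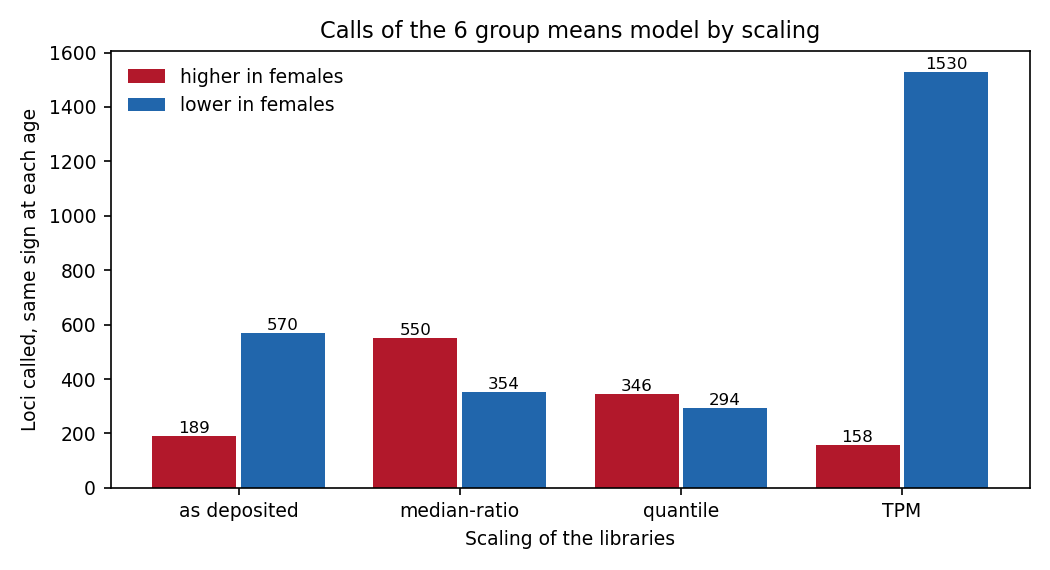
Loci called by the model of 6 group means with the same sign at each age (vertical axis, number of loci), for the values as deposited and after 3 other scalings (horizontal axis). Red bars are loci higher in females and blue bars loci lower in females. Lower loci outnumber higher ones on the deposited values (189 higher and 570 lower), and the order turns after median-ratio scaling (550 and 354).

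Libraries of the same group also moved these counts. Leaving out 1 library gave between 26 and 251 higher and between 59 and 1487 lower loci. The lowest counts came without replicate 1 of the male 10-15 h embryos (26 higher and 59 lower), and the most lower loci came without replicate 1 of the female 25-40 h embryos (234 higher and 1487 lower). The female and male libraries did not overlap at any age for 81 of the 189 higher loci, against 102 loci (1.01%) of all tested, and for 198 of the 570 lower loci, against 295 (2.92%) of all tested. The calls were chosen on the same values, so these counts only describe them. Of the 59 loci of the set named below, 24 were called in at most 4 of the 12 fits that left out 1 library and 10 in all 12.

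Ribosomal protein genes were the largest named group among the loci higher in females. Of 49 tested loci of cytosolic ribosomal proteins, the building blocks of the translation machinery, 33 were called higher on the mean over the ages with the same sign at each age, and none lower. Of all loci tested, 1.87% were called higher in this way. From 10-15 h and 55-70 h alone, none of the 49 was called. Their median difference was 0.32 at 10-15 h, 1.09 at 25-40 h and 0.25 at 55-70 h, where the median of all loci was -0.11, -0.03 and -0.19. The difference was largest at 25-40 h for 47 of the 49 loci. Its size changed between the ages, by the interaction of sex and age, for 11 of the 49, among them 5 of the 33. Of all loci, 1015 (10%) were called there. At 10-15 h 36 of the 49 ribosomal loci were higher in females, at 25-40 h all 49 and at 55-70 h 44. The count was 44 with median-ratio scaling and 12 with quantile normalization, and 10 loci were called under the deposited values and all 3 scalings. For 30 of the 49 loci the FPKM of every library lay outside the confidence bounds deposited with it, so their levels are uncertain.

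*RpL34* (chromosome 14, 9407024 to 9415416) had the largest difference of these genes that held at each age. Its FPKM were 1441 and 868 in female embryos, against 673 and 768 in male embryos, at 10-15 h. They were 3269 and 3585 in females against 1115 and 1553 in males at 25-40 h, and 6575 and 4964 in females against 2789 and 3562 in males at 55-70 h. The sexes did not overlap at any age, and the level was higher at each later age in both. The difference averaged over the ages was 0.96 ± 0.15 (SE, n = 6 libraries of each sex, limma adjusted p = 0.00823). Its locus overlaps 2 others in the files, among them *EphR*. *RpL35A* differed by 0.80 ± 0.11 (adjusted p = 0.00553), *RpS26* by 0.63 ± 0.13 (adjusted p = 0.0173) and *RpL13* by 0.52 ± 0.12 (adjusted p = 0.0274), and the libraries of the sexes did not overlap at any age for these 3 genes either. The locus of *RpL35A* overlaps 5 others, among them one that joins the same name with *LOC100576902*. After quantile normalization *RpL13* lost its call (adjusted p = 0.0768). *RpL27* differed by 0.56 at 10-15 h, 1.30 at 25-40 h and 0.33 at 55-70 h.

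**Figure D2:**
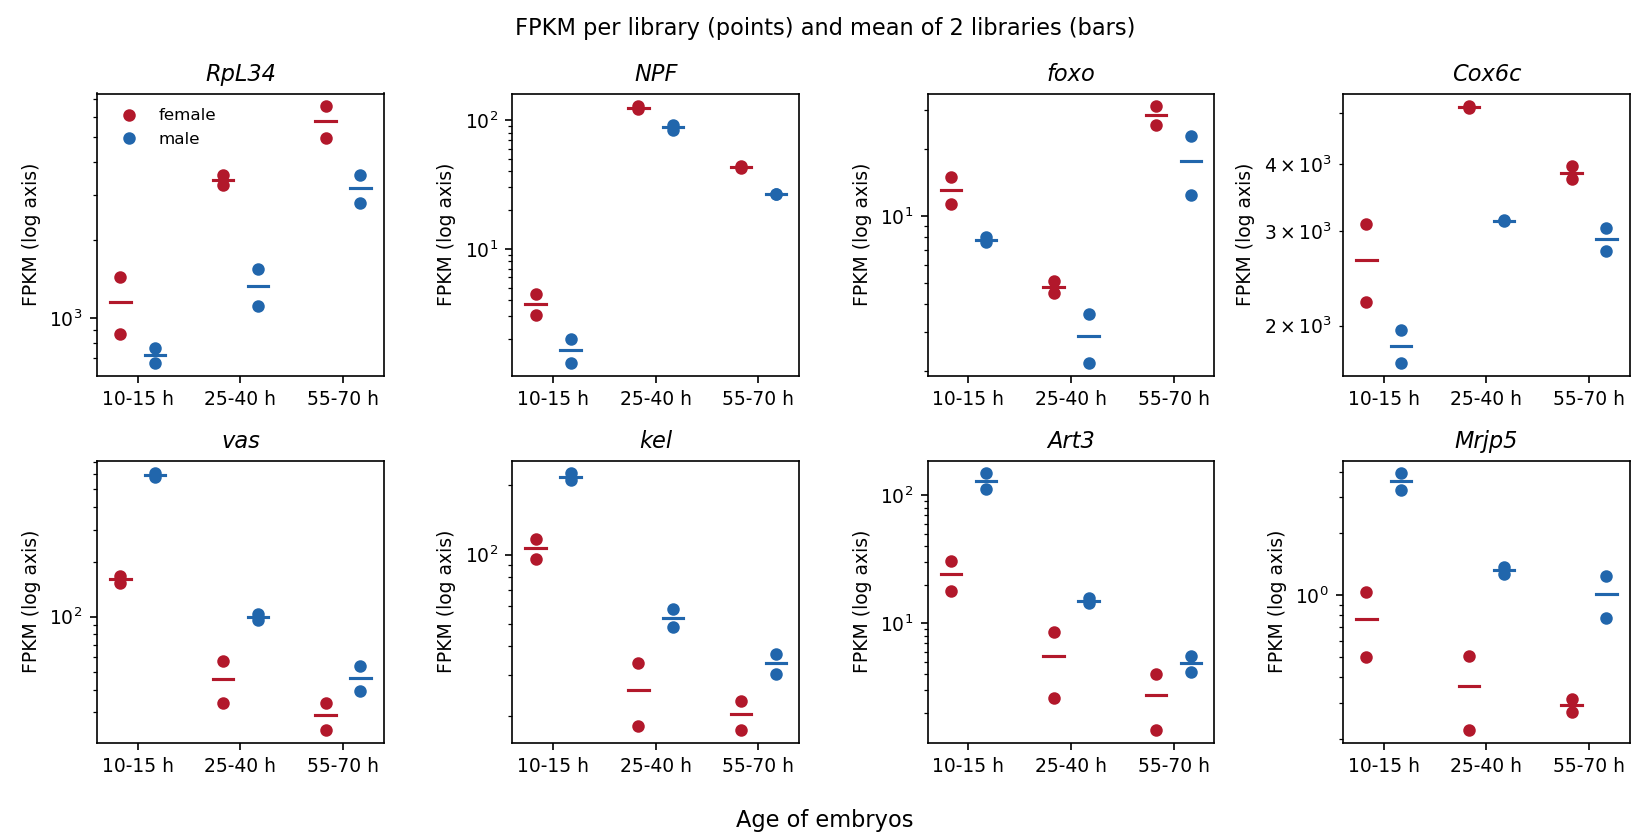
FPKM (vertical axes, log scale) of 8 genes in each library at the 3 ages (horizontal axes). Red points are female and blue points male libraries, 2 per sex and age, and bars are their means. The genes of the upper panels were higher and those of the lower panels lower in females at each age, and no female point overlaps the male points of its age.

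Besides ribosomal proteins, the genes of known name whose smallest difference over the ages was largest included a neuropeptide and a transcription factor. *NPF*, which encodes neuropeptide F, a regulator of feeding in insects, lies on chromosome 13 (2822602 to 2825742). Its FPKM were 4.44 and 3.08 in females against 1.995 and 1.30 in males at 10-15 h, 128 and 122 in females against 92.2 and 84.3 in males at 25-40 h, and 44.1 and 42.8 in females against 26.7 and 26.7 in males at 55-70 h. Females were higher at each age by 0.84, 0.50 and 0.68 (mean 0.68 ± 0.13, adjusted p = 0.0170), and the gene peaked at the middle age in both sexes. For 9 of its 12 libraries the FPKM lay outside the deposited bounds.

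*foxo*, a transcription factor restrained by insulin signalling, lies on chromosome 7 (6750831 to 7005303). It had 15.0 and 11.3 FPKM in females against 8.05 and 7.60 in males at 10-15 h, 5.08 and 4.50 in females against 3.61 and 2.18 in males at 25-40 h, and 31.1 and 25.7 in females against 12.4 and 22.8 in males at 55-70 h. Its difference was similar at the successive ages, at 0.67, 0.60 and 0.71 (mean 0.66 ± 0.18, adjusted p = 0.0422). The call was weak: it held in 2 of the 12 fits that left out 1 library.

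*Cox6c*, a subunit of cytochrome c oxidase in the respiratory chain, had 3091 and 2209 FPKM in females against 1702 and 1958 in males at 10-15 h, 5104 and 5138 in females against 3145 and 3137 in males at 25-40 h, and 3971 and 3758 in females against 2752 and 3049 in males at 55-70 h. It was higher in females at each age (mean 0.55 ± 0.10, adjusted p = 0.0119). None of its FPKM lay within its own bounds, and after quantile normalization it was not called (adjusted p = 0.0633). The metabotropic glutamate receptor *mGlutR1* differed by 0.51 ± 0.15 (adjusted p = 0.0489), *NT-9* by 0.57 ± 0.16 (adjusted p = 0.0466) and *Gdch* by 0.63 ± 0.17 (adjusted p = 0.0391). These 3 calls stand near the threshold, and those of *NT-9* and *mGlutR1* were lost after rescaling to TPM, with adjusted p of 0.0572 and 0.0568.

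**Figure D3:**
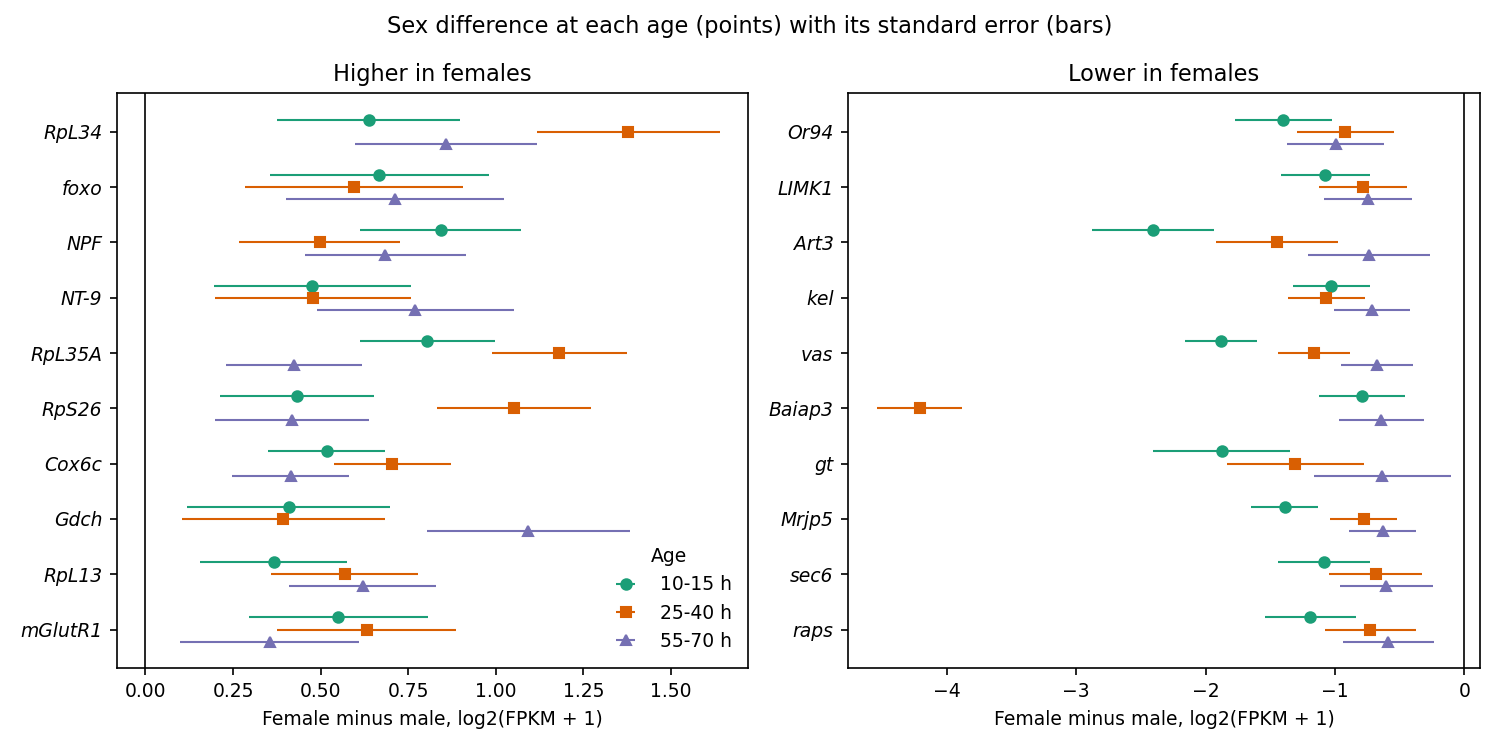
Female minus male difference on the log2(FPKM + 1) scale (horizontal axes) of 20 named genes at 10-15 h (circles), 25-40 h (squares) and 55-70 h (triangles), with standard errors from the model of 6 group means. The genes of the left panel were higher and those of the right panel lower in females at each age. *foxo* has nearly equal values (0.67, 0.60 and 0.71), whereas *Baiap3* lies at -4.21 at 25-40 h only.

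Among the loci lower in females, *vas* had the smallest adjusted p of the named genes that changed evenly enough not to be called in the interaction. *vas* encodes the RNA helicase Vasa of the germ line and lies on chromosome 1 (28621929 to 28626138). Its FPKM were 167 and 154 in females against 578 and 608 in males at 10-15 h, 57.4 and 33.9 in females against 103.7 and 95.9 in males at 25-40 h, and 24.0 and 33.7 in females against 53.6 and 39.5 in males at 55-70 h. Females were lower at each age with no overlap, by -1.88, -1.16 and -0.67, and the difference had its largest value at 10-15 h, when the transcript was most abundant. The mean difference was -1.24 ± 0.16 (adjusted p = 0.00432), and the call held in each of the 12 fits that left out 1 library.

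*kel*, known in *Drosophila* as *kelch* for the ring canals of the female germ line, had 117 and 96.0 FPKM in females against 225 and 210 in males at 10-15 h, 33.9 and 18.1 in females against 58.2 and 48.4 in males at 25-40 h, and 17.3 and 23.3 in females against 37.1 and 30.4 in males at 55-70 h. Its differences of -1.03, -1.07 and -0.71 were more even than those of *vas* (mean -0.94 ± 0.17, adjusted p = 0.0135), although none of its FPKM lay within the deposited bounds. *Art3*, an arginine methyltransferase, differed by -2.41, -1.45 and -0.73 at the successive ages (mean -1.53 ± 0.27, adjusted p = 0.0121). *LIMK1*, a kinase that acts on the actin cytoskeleton, differed by -1.07, -0.78 and -0.75 at the same ages (mean -0.87 ± 0.20, adjusted p = 0.0249). The gap gene *gt* (*giant* in *Drosophila*) had 86.1 and 65.3 FPKM in females against 300.2 and 257 in males at 10-15 h, 239 and 56.1 in females against 305 and 273 in males at 25-40 h, and 1.09 and 2.15 in females against 3.78 and 2.31 in males at 55-70 h. At 25-40 h its female libraries were further from each other than the higher of them was from the male ones (mean -1.27 ± 0.31, adjusted p = 0.0291).

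Low transcripts were found here as well. The odorant receptor *Or94*, on chromosome 12 (1609249 to 1613903), had 1.18 and 1.25 FPKM in females against 3.51 and 6.55 in males at 10-15 h, 3.71 and 1.32 in females against 5.83 and 4.72 in males at 25-40 h, and 0.406 and 0.479 in females against 2.51 and 1.35 in males at 55-70 h. Females were lower at each age by -1.40, -0.92 and -0.99 (mean -1.10 ± 0.22, adjusted p = 0.0168), and a further locus of the same name overlaps it. *Mrjp5*, a member of the major royal jelly protein family, stayed under 4 FPKM in every library and differed by -1.39, -0.78 and -0.63 (mean -0.93 ± 0.15, adjusted p = 0.00929). *sec6*, a subunit of the exocyst complex of secretion, differed by -0.79 ± 0.21 (adjusted p = 0.0379), and *raps* by -0.84 ± 0.20 (adjusted p = 0.0300). *Baiap3* had the largest mean difference of the named genes, -1.88 ± 0.19 (adjusted p = 0.00155), but it rested on 1 age. At 25-40 h it had 1.65 and 0.962 FPKM in females against 52.3 and 32.5 in males, a difference of -4.21, against -0.79 at 10-15 h and -0.64 at 55-70 h. The sizes differed between the ages (interaction adjusted p = 0.00345).

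The largest differences that held at each age were at loci without a gene symbol. In females, *LOC412764*, *LOC552783* and *LOC727028*, which share 1 locus on chromosome 9 (5535898 to 5569958), were higher by at least 1.13 at each age (mean 1.30 ± 0.26, adjusted p = 0.0171). That locus overlaps one that joins *RpL35A* with *LOC100576902*, so reads of these loci cannot be told apart with certainty. It does not overlap the *RpL35A* locus given above. *LOC100577973* on chromosome 1 had 44.5 and 39.8 FPKM in females against 26.1 and 21.0 in males at 10-15 h, 44.9 and 42.4 in females against 21.7 and 17.4 in males at 25-40 h, and 323 and 253 in females against 41.9 and 132 in males at 55-70 h (mean difference 1.29 ± 0.24, adjusted p = 0.0151). *LOC409463* differed by 1.30 ± 0.25 (adjusted p = 0.0165), and a locus that joins the same identifier with other genes overlaps it. The unnamed locus XLOC_016862 differed by 2.48 ± 0.36 (adjusted p = 0.00690), although 1 female and both male libraries are listed at 0 at 10-15 h. The unnamed XLOC_006512 differed by 0.91 ± 0.25 (adjusted p = 0.0454).

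Lower in females were a pair of overlapping loci named *LOC100576875* on chromosome 12, which may share reads and count as 1 observation. The shorter had 427 and 363 FPKM in females against 927 and 1040 in males at 10-15 h, 1389 and 448 in females against 2801 and 4039 in males at 25-40 h, and 2.76 and 2.09 in females against 29.5 and 2.29 in males at 55-70 h. At the last age 1 male library alone carried the gap, and the sexes overlapped. The mean difference was -1.65 ± 0.47 (adjusted p = 0.0478). *LOC725118* differed by -1.17 ± 0.25 (adjusted p = 0.0215) and *LOC100578821* by -1.20 ± 0.23 (adjusted p = 0.0151). XLOC_001591, listed at 0 in 4 of the 6 female libraries, differed by -1.60 ± 0.28 (adjusted p = 0.0119).

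A stricter reading asks whether a call stands on each pair of ages without the third. Only 1 locus higher in females and 7 lower ones were called in all 3 pairs with the same sign, and they are given here because of that result. *LOC100577619* on chromosome 9 (10797676 to 10811476) had 10.3 and 11.97 FPKM in females against 6.33 and 5.11 in males at 10-15 h, 33.1 and 35.7 in females against 18.6 and 25.4 in males at 25-40 h, and 94.9 and 60.7 in females against 25.0 and 16.9 in males at 55-70 h. The groups did not overlap, and females were higher by 0.86, 0.64 and 1.83 (mean 1.11 ± 0.17, adjusted p = 0.00726). *LOC725127* on chromosome 5 (4695228 to 4700745) had 106 and 105 FPKM in females against 274 and 261 in males at 10-15 h, 18.9 and 19.8 in females against 81.8 and 52.8 in males at 25-40 h, and 12.9 and 14.2 in females against 19.3 and 21.1 in males at 55-70 h. Here too the sexes were apart at each age (mean -1.20 ± 0.13, adjusted p = 0.00194). The unnamed XLOC_004443 differed by -1.14, -1.88 and -0.86, and XLOC_009784 by -0.63, -1.93 and -1.05. The other 4, *LOC100577833*, *LOC100577596*, *LOC725783* and *LOC725925*, differed by only -0.36, -0.30, -0.20 and -0.30 at 55-70 h, and the interaction was called for each. Of the remaining calls, 36 of 189 higher and 190 of 570 lower loci were called in no pair of ages.

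Few other lists held several members of the set. The 759 calls are 7.51% of the loci tested. Of 19 kinesins, the motor proteins of microtubules, 4 were lower in females and none higher: *kinesin-8* differed by -1.81 ± 0.28, *kinesin-5A* by -1.07 ± 0.30, *kinesin-B* by -0.90 ± 0.25 and *kinesin-2A* by -0.69 ± 0.17. Their median difference was -1.07 at 10-15 h, -0.54 at 25-40 h and -0.22 at 55-70 h, the last close to that of all loci (-0.19). After median-ratio scaling 2 kinesins were called lower with the same sign at each age, and after quantile normalization 1. At 55-70 h *kinesin-8* differed by -0.45, *kinesin-5A* by -0.47, *kinesin-B* by -0.06 and *kinesin-2A* by -0.09. *kinesin-B* and *kinesin-2A* did not have the same sign at each age after median-ratio scaling or quantile normalization. Of 19 DNA replication factors 2 were lower, the licensing inhibitor *geminin* (-0.56 ± 0.14) and the polymerase *DNApol-iota* (-0.70 ± 0.18). Of 7 germ line and small RNA factors 2 were lower, *vas* and the Argonaute *AGO2* (-1.56 ± 0.28). *AGO2* differed by -2.98 at 10-15 h, -1.40 at 25-40 h and -0.29 at 55-70 h. Of 3 homologues of the *Drosophila* dosage compensation complex 2 were lower, *msl-3* (-0.92 ± 0.23) and *mof* (-0.68 ± 0.18), which differed by -1.83 and -1.70 at 10-15 h and by -0.39 and -0.13 at 55-70 h. For *msl-3*, *mof*, *AGO2* and the 4 kinesins the sexes were not apart at every age. Of the 12 fits that left out 1 library, 3 called *msl-3*, and likewise 3 each called *mof*, *kinesin-5A*, *kinesin-B* and *kinesin-2A*. *kinesin-8* was called in 11 and *AGO2* in 10.

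Other lists held no more than 2 members of the set. Of 10 histone and chromatin genes 2 were lower, the Polycomb methyltransferase *E(z)* (-1.37 ± 0.27) and the remodeller *Iswi* (-1.18 ± 0.24), and *E(z)* differed by only -0.05 at 55-70 h. After median-ratio scaling, and likewise with quantile normalization, *mof* and *E(z)* did not have the same sign at each age, and 1 of the 10 histone and chromatin genes was called higher and 1 lower with median-ratio scaling. Of 6 chaperones 2 were lower, *Hsc70cb* (-0.70 ± 0.19) and *Droj2* (-0.67 ± 0.18), which were called in 1 and 2 of the 12 fits that left out 1 library. Of 9 nucleoporins 1 was lower, *NUP50* (-0.93 ± 0.19). Of 27 nuclear subunits of the respiratory chain 2 were higher, *Cox6c* and *Cox5b* (0.46 ± 0.10), and after rescaling to TPM *Cox5b* did not have the same sign at each age. Of 47 mitochondrial ribosomal proteins, which serve translation within mitochondria, 1 was higher (*mRpS14*, 0.64 ± 0.12), and their median of -0.17, 0.28 and -0.35 at the 3 ages changed sign. Of 8 mitochondrial genome genes 1 was higher, *CYTB* (0.89 ± 0.23), with none of its FPKM within the bounds and no call on quantile-normalized values (adjusted p = 0.102). Single members were called in the lists of Hox genes (*Scr*, 0.50 ± 0.13, without the same sign at each age after rescaling to TPM), splicing regulators (*Smb*, 0.57 ± 0.12), chemosensory genes (*Or94*) and royal jelly and yellow proteins (*Y-y*, 0.60 ± 0.15, beside *Mrjp5*).

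**Figure D4:**
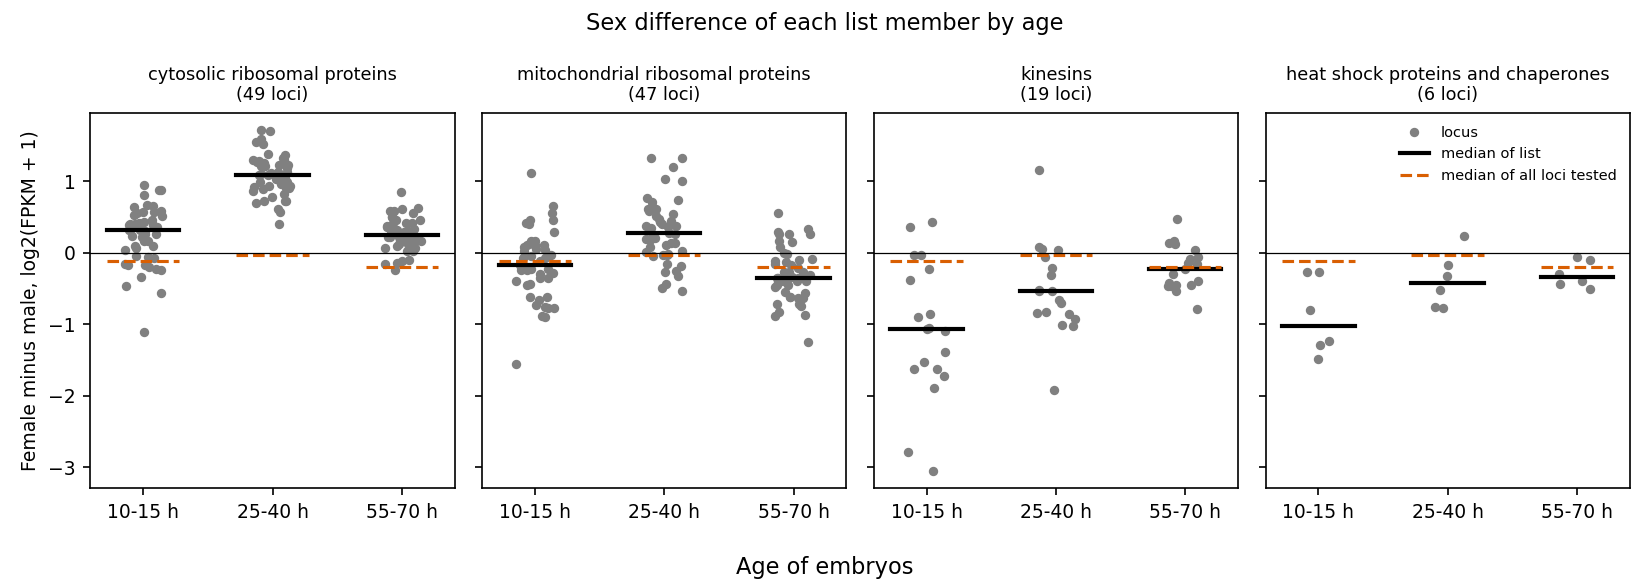
Female minus male difference (vertical axis, log2(FPKM + 1)) of each tested locus of 4 gene lists at the 3 ages (horizontal axes). Grey points are loci, black lines the medians of the list and dashed lines the medians of all loci tested. Cytosolic ribosomal proteins have medians of 0.32, 1.09 and 0.25, whereas the kinesins have a median of -1.07 at 10-15 h and of -0.22 at 55-70 h.

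No member was called with the same sign at each age among 26 genes of cytochrome P450 and detoxification, 19 cuticle proteins, 19 Mediator subunits, 18 immune genes, 13 aminoacyl-tRNA synthetases, 7 storage and yolk proteins, 4 DNA methylation genes and 1 sperm and testis marker. The same holds for the 18 neural and 9 muscle markers, whose median differences were -0.01 and 0.09. These lists hold 134 loci, of which 11 had the same sign at each age and an unadjusted p under 0.05 in limma with the group means, and 7 did so with age as a covariate. Of all 10105 loci tested, 346 higher and 1472 lower ones did so with the group means. With age as a covariate they were 307 and 1317. Markers of the serosa found no tested locus.

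On the deposited values sex determination genes were not in the set, although 3 of 7 tested loci were called without the same sign at each age. The FPKM of a locus does not separate its splice forms, so the female and male forms of *fem* and *dsx* could not be compared. At 10-15 h *Fem* and the *Csd* locus XLOC_003814 had less than 1 FPKM in every library, so their sign there is uncertain. *Fem* had 0.257 and 0.213 FPKM in females against 0.660 and 0.360 in males at 10-15 h, 76.4 and 37.7 in females against 38.4 and 91.0 in males at 25-40 h, and 85.6 and 124 in females against 372 and 236 in males at 55-70 h, and was not called (mean -0.65 ± 0.25, adjusted p = 0.114), although it was after rescaling to TPM (adjusted p = 0.0377). *Dsx* differed by 0.79 at 10-15 h, 0.72 at 25-40 h and -0.02 at 55-70 h. After median-ratio scaling (adjusted p = 0.0194) and after quantile normalization (adjusted p = 0.0328) it was called higher in females with the same sign at each age. *tra2* differed by -0.21 ± 0.12 (adjusted p = 0.260). Of 3 overlapping *Csd* loci, between which reads cannot be assigned with certainty, XLOC_004134 is listed at 0 in every female library and, at 10-15 h, in the male ones too. Its FPKM in males were 59.3 and 65.9 at 25-40 h, and at 55-70 h they were 332 and 52.2. XLOC_004134 was called lower in females on the mean over the ages (limma adjusted p = 0.000827). This is the smallest value of the model, and *LOC100577833*, a member of the set, has the same one. XLOC_004134 is outside the set only because its difference at 10-15 h was 0.

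Loci were also called from the 8 libraries of 2 ages, and the sign was then read in the third age, which the call did not use. Over the 3 ways to leave out an age, 809 of 1492 calls of the group means model (54.2%) kept their sign. The share was 48.4% of 2465 calls after median-ratio scaling and 44.3% of 2047 after quantile normalization. These pooled shares do not by themselves show that signs persisted. The share of all loci with the called sign differed by age and direction, between 32.9% and 66.5% on the deposited values, and stands beside each count below. Of 79 loci (0.782%) called higher without 10-15 h, 63.3% were higher in females at 10-15 h, where 35.1% of all loci were. Of 113 (1.12%) called lower, 46.9% were lower there, against 61.4% of all loci. Without 25-40 h, 18 (0.178%) were called higher and 44.4% of them were higher at that age, against 47.4% of all loci, while 76.8% of the 198 (1.96%) called lower were lower, against 51.8%. Without 55-70 h, 38.4% of 466 (4.61%) called higher were higher at that age, against 32.9% of all loci, and 59.4% of 618 (6.12%) called lower were lower, against 66.5%.

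After median-ratio scaling, 60.6% of 66 higher calls were higher at 10-15 h (48.5% of all loci), and 70.8% of 209 lower calls were lower at 25-40 h (50.0% of all loci), but only 32.9% of 1009 lower calls were lower at 55-70 h (44.8% of all loci). On quantile-normalized values the sign was kept by 81.6% of 38 higher calls at 10-15 h (54.4% of all loci) and by 42.6% of 1051 higher calls at 55-70 h (46.3% of all loci). With those values no locus was called in either direction without 25-40 h. Among the ribosomal proteins, of 14 called higher without 10-15 h, 13 were higher at that age, of 25 called without 55-70 h, 23 were higher there, and without 25-40 h 0 of 49 were called. After median-ratio scaling 15 were called without 25-40 h, and all 15 were higher at that age. On the deposited values, called or not, 36 of the 49 were higher at 10-15 h, all 49 at 25-40 h and 44 at 55-70 h. The sign at 25-40 h was therefore shared by the whole list and says nothing about the 15 calls. The model with age as a covariate called 11 loci from any pair of ages, of which 6 (54.5%, 95% Wilson interval 28.01 to 78.7, counting error only) kept the sign.

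**Figure D5:**
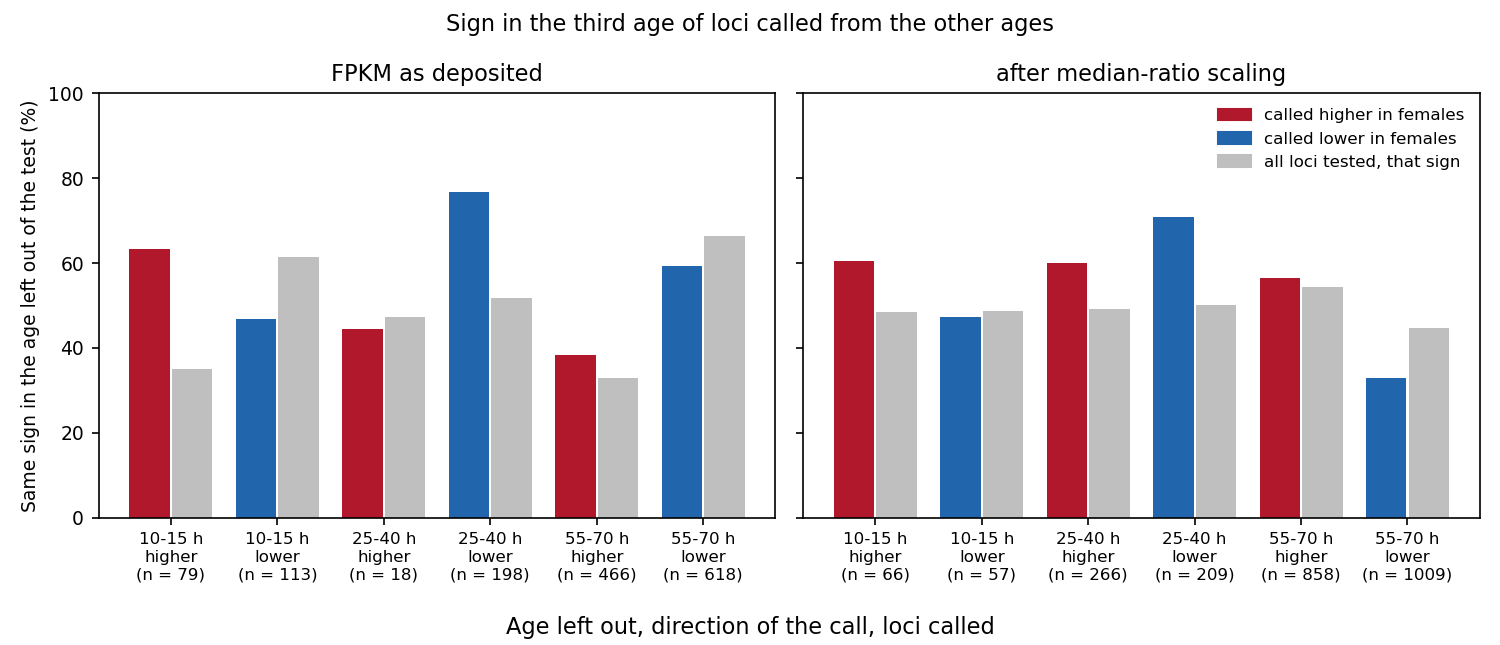
Share of loci with the same sign in the age left out of the test (vertical axes, %), for loci called from the other ages. Red bars are calls higher and blue bars calls lower in females, with their number under the bars, and grey bars are the share of all loci with that sign. The left panel shows deposited FPKM and the right panel values after median-ratio scaling. Lower calls read at 25-40 h stand above all loci in both panels (76.8% and 70.8%), and lower calls read at 55-70 h stand below them (59.4% and 32.9%).

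The size of the difference was seldom even. The smallest of the 3 differences was at least 50% of the largest for 17 of the 189 higher loci and 72 of the 570 lower ones. It was at least 0.5 for 21 higher and 120 lower loci. The largest difference fell at 25-40 h for 138 of the higher loci and at 10-15 h for 324 of the lower ones. The interaction of sex and age was called for 35 of the higher and 50 of the lower loci, against 1015 of all loci (10%). A locus not called there is not shown to be equal at the ages.

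The members shared a pattern over age, which the sex contrast did not use. Between 10-15 h and 55-70 h, averaged over both sexes, the level was higher at the later age for 93.1% of the loci higher in females (median change 2.18) and for 26.8% of the lower ones (median change -0.98), against 68.97% of all loci tested (median 0.97). *RpL34* and *NPF* are examples of the loci with more transcript at the later age, and *vas*, *Art3* and *gt* of those with less. The part of developmental progress in the sex differences was not tested. Members were also more abundant than the average locus, with a median of the mean FPKM of 31.5 for the higher and 19.8 for the lower loci, against 10.6 for all. The FPKM lay within its own bounds in all 12 libraries for 47.1% of the higher and 59.5% of the lower loci, against 60.7% of all.

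By position the members fell on many chromosomes. The higher loci fell on 17 chromosomes, counting the mitochondrial one, and the lower loci on 16. The largest number was on chromosome 1, with 22 higher and 73 lower loci, or 11.6% and 12.8%, against 13.9% of all loci tested. Next to another member of the same direction lay 14 of the higher and 81 of the lower loci, and 12 and 45 overlapped another member. No such count was made for all loci, so whether the members cluster was not tested. Most members had no descriptive name: 83 higher and 340 lower loci carried only a LOC identifier, 11 and 45 had no name, and 34 and 59 joined several genes. Having no name at all was more frequent among all loci tested (1750 of 10105, 17.3%) than among these members.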

How the data were processed

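The authors deposited, for each library and locus, an FPKM value, its 2 confidence bounds and a status. Per the labels the RNA was poly(A) RNA, and the submitters' processing notes name TopHat2 with Bowtie2 2.2.6 and Cufflinks 2.2.1. For the genome build and the strand setting the sources used here give nothing. Coordinates are those of the files, counted from 1. The authors' FPKM hold no depth, so no count test was possible.

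Loci with a valid status in all 12 libraries and a mean of at least 1 FPKM were analysed as log2(FPKM + 1) in limma 3.58.1 (R 4.3.3) with a variance trend and Benjamini-Hochberg adjustment at 0.05 over all 10105 loci. The planned test had age as a covariate. As it made no call, genes were named from the model of 6 group means. Alternatives around that model were chosen after seeing the data. The interaction was an F test of 2 terms.

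In each direction the text names the 10 called genes with a symbol whose smallest difference over the ages was largest and whose libraries did not overlap at any age, the 5 such loci of any name without the condition on overlap, up to 5 loci listed at 0 in the other sex (there were none), and up to 4 called members of each of 27 gene lists by adjusted p, besides *csd*, *fem*, *dsx* and *tra2*. Of the loci so chosen, 1 is not reported here. Lists were matched by symbol. The members, lists and tests were chosen with earlier results of these data known. Alternatives were other pseudocounts (0.1 and 5), filters, scalings, a replicate block, no variance trend, and leaving out loci, libraries or ages. Tables and figures used Python 3.11.15, pandas 2.3.3, numpy 2.4.6, scipy 1.17.1 and matplotlib 3.10.9.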

Additional observations from a re-analysis of the deposited data

Results flagged for a closer look

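The sex difference of 7 named loci differed between the ages by the F test of the interaction in limma, and the values are given without an explanation. *Baiap3* differed by -0.79 at 10-15 h, -4.21 at 25-40 h and -0.64 at 55-70 h (adjusted p = 0.003452). *LOC100577833* differed by -1.14, -2.54 and -0.36 at the same ages (adjusted p = 0.003452), *LOC100577596* by -2.48, -3.56 and -0.30 (adjusted p = 0.0143), *LOC725783* by -2.49, -2.92 and -0.20 (adjusted p = 0.01224) and *LOC725925* by -1.65, -2.13 and -0.30 (adjusted p = 0.02274). The *Csd* locus XLOC_003814 differed by -0.11, 0.05 and -2.63 (adjusted p = 0.02109). The interaction was also called for the *Csd* locus XLOC_004134 (adjusted p = 0.003452), which is listed at 0 in every female library, so no difference is given for it.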

How the results depend on the processing

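With age as a covariate, other pseudocounts, filters, scalings, the replicate block and the fit without a variance trend gave 0 calls in both directions, as did leaving out 25-40 h. Calls appeared with the 6 group means (189 higher and 570 lower), without 55-70 h (2 and 8) and without 10-15 h (0 and 1). Leaving out 1 library gave 0 to 1 higher and 0 to 3 lower, the highest without male 55-70 h replicate 2. In the group means model, the counts were 550 and 354 with median-ratio scaling, 346 and 294 with quantile normalization, 158 and 1530 as TPM, 118 and 276 with no filter on the mean, 109 and 495 for loci within their own bounds, 79 and 113 without 10-15 h, 18 and 198 without 25-40 h, and 466 and 618 without 55-70 h.

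Leaving out 1 library ranged between 26 and 251 higher and between 59 and 1487 lower, and 10 of the 12 libraries moved a count by over 1.5 times. Without replicates 1 and 2 the counts were 107 and 415, and 92 and 104, for female 10-15 h. They were 234 and 1487, and 94 and 198, for female 25-40 h. Without female 55-70 h replicate 1 they were 53 and 94. For male 10-15 h they were 26 and 59, and 72 and 108. For male 25-40 h they were 88 and 251, and 129 and 203. Without male 55-70 h replicate 1 they were 117 and 179. The cause was not tested.

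The share of calls from 2 ages with the same sign in the third was 54.5% with age as a covariate. It was 0% of 1 call with no filter on the mean, and leaving out 1 library gave 0% to 66.7%, with no call at all without female 25-40 h replicate 2 or male 25-40 h replicate 1. Replicate numbers did not pair the libraries: the deviations of same-numbered libraries correlated positively in 4 of 15 pairs of groups. With the replicate block the group means model gave 158 and 435 calls, and the additive model 0. Of the named loci, *tra2* turned to 0.0125 after median-ratio scaling and the locus Csd XLOC_004135 to 0.0313 without 55-70 h, in both models and neither called. No other named locus changed the direction of its mean difference under an alternative run. With 2 libraries per group and no depth in reads, small differences at low loci could not be resolved.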
